A study of Mus musculus with 5 samples.

Results

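The receptors for interleukin-2 (IL-2) and the other cytokines that signal through the common gamma chain were examined as 7 genes: Il2ra, Il2rb, Il2rg, Il7r, Il15ra, Il4ra and Il21r. Their members here were the H3K27ac peaks that overlapped the annotated span of a receptor gene extended by 30 kb on each side, a region called its window below. The rule used positions alone and found 107 of the 124158 peaks in the table. H3K27ac, the acetylation of lysine 27 on histone H3 found at active promoters and enhancers, was measured by CUT&Tag, in which an antibody brings a transposase to the mark and adapters are inserted into the DNA beside it. Regulatory T (Treg) cells were sorted as CD3+CD4+Foxp3-YFP+ cells from the large intestine of C57BL/6 mice aged 2 weeks at steady state, with 60000 cells from 3 to 5 littermates, females and males pooled, in each replicate. Both groups carried a Cre-YFP driven by Foxp3, the transcription factor that defines Treg cells, so deletion is limited to cells that have switched Foxp3 on. Ctrl mice (Foxp3Cre-YFP Setd2 f/+) also carried 1 floxed allele of Setd2, the enzyme that trimethylates lysine 36 of histone H3, and can therefore lose it, whereas both alleles were floxed in KO mice (Foxp3Cre-YFP Setd2 f/f). There were 2 libraries per genotype, and the comparison asks whether H3K27ac at these receptor loci differs when Treg cells lose Setd2.

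The common gamma chain, encoded by Il2rg, pairs with different partner chains to form the receptors for IL-2, IL-4, IL-7, IL-9, IL-15 and IL-21, and the complexes pass their signal through the kinases JAK1 and JAK3 to STAT transcription factors. Treg cells carry abundant IL-2 receptor alpha chain, make little IL-2 of their own, and rely on IL-2 from neighbouring cells for survival and Foxp3 expression. The mark is measured here on chromatin, so the values below describe neither receptor mRNA nor receptor protein. In other samples the paper reports slightly lower CD25 protein (IL-2 receptor alpha) on KO Treg cells of spleen and intestine. It also reports higher CD122 protein (IL-2 receptor beta) on those of the spleen.

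The libraries held between 2395002 and 4712473 counts in peaks, and 3 counts, the limit that a count of 0 allows, corresponded to 0.719 to 1.36 CPM (counts per 1000000 counts of a library, after scaling). The receptor windows took 0.192% and 0.228% of the counts in Ctrl 1 and Ctrl 2, with exact 95% binomial intervals of 0.187% to 0.198% and 0.223% to 0.233%. In KO 1 and KO 2 they took 0.214% (0.209% to 0.220%) and 0.272% (0.268% to 0.277%), and these intervals cover counting error only. H3K27ac at Setd2 itself measured 51.6 and 84.2 CPM in Ctrl and 45.8 and 65.4 CPM in KO, which overlap, and it does not show whether the floxed exons were deleted. All 9 T cell and Treg marker genes had peaks, with a summed level of 2496 and 2855 CPM in Ctrl and 3001 and 3672 CPM in KO. Ikzf2 alone gave 1143 and 1193 CPM in Ctrl and 1259 and 1502 CPM in KO. By gene, 8 of the 9 were higher and 1 lower in KO. Both KO libraries lay above Ctrl at 5 of them, beside 13.2% of all genes. The part of these markers in the receptor differences was not tested. Summed markers of B cells (23.5 to 42.9 CPM), epithelial cells (43.4 to 69.3 CPM), NK and innate lymphoid cells (13.7 to 23.8 CPM), CD8 T cells (4.17 to 8.60 CPM) and stromal cells (2.16 to 9.50 CPM) were low in every library. Myeloid markers summed to 117 to 140 CPM, most of it at Spi1, and the defining genes Lyz2, Itgam, Ms4a1, Ncr1, Klrk1, Cd8a, Krt20, Col1a2 and Col3a1 had no peak in promoter or gene body. In pooled cells, fewer cells with the mark and less of the mark per cell cannot be told apart.

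The 7 genes lie at 5 places in the genome (mm10, spans from GENCODE M21). Il2ra (ENSMUSG00000026770.5), the alpha chain that gives the IL-2 receptor its high affinity, spans chr2:11642807-11693193 on the plus strand. Il15ra (ENSMUSG00000023206.16), the chain that holds and presents IL-15, follows it on the same strand at chr2:11705290-11734317. Il4ra (ENSMUSG00000030748.9), the chain that binds IL-4, and Il21r (ENSMUSG00000030745.9), the chain that binds IL-21, are likewise neighbours on the plus strand, at chr7:125552120-125579474 and chr7:125603429-125633570. Because of this proximity 18 of the 107 peaks lay in 2 windows, 9 in the Il2ra and Il15ra pair and 9 in the Il4ra and Il21r pair. Il2rb (ENSMUSG00000068227.9), the beta chain shared by the IL-2 and IL-15 receptors, spans chr15:78479256-78495271, Il7r (ENSMUSG00000003882.5), the alpha chain for IL-7, spans chr15:9505788-9530176, and Il2rg (ENSMUSG00000031304.18) spans chrX:101264378-101268255, all 3 on the minus strand.

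A window is not the same as a gene. Of the 107 peaks, 54 lay in the promoter (within 3 kb of a start site) or body of a receptor gene and are called its own peaks, and 32 were nearest to or inside genes outside the family. The Il2rg window took in Foxo4, Gm614 and Med12, and peaks assigned to these neighbours held 48.5% to 50.9% of its signal in the 4 libraries. The peak over the Il2rg start site also overlaps an exon of Gm614. It is counted wholly as an own peak of Il2rg, so the values of that gene include signal outside it. The Il2rb window reached into Tmprss6 and C1qtnf6 and that of Il21r into Gtf3c1. The Il7r window held 2 intergenic peaks nearest to Capsl, and that of Il2ra held 7 peaks in the promoter of Gm17490 or nearest to it. In the Il15ra window 48.7% to 67.7% of the signal belonged to the distal body of Il2ra and to Fbh1, so this window reported on other genes as much as on Il15ra.

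**Figure D1:**
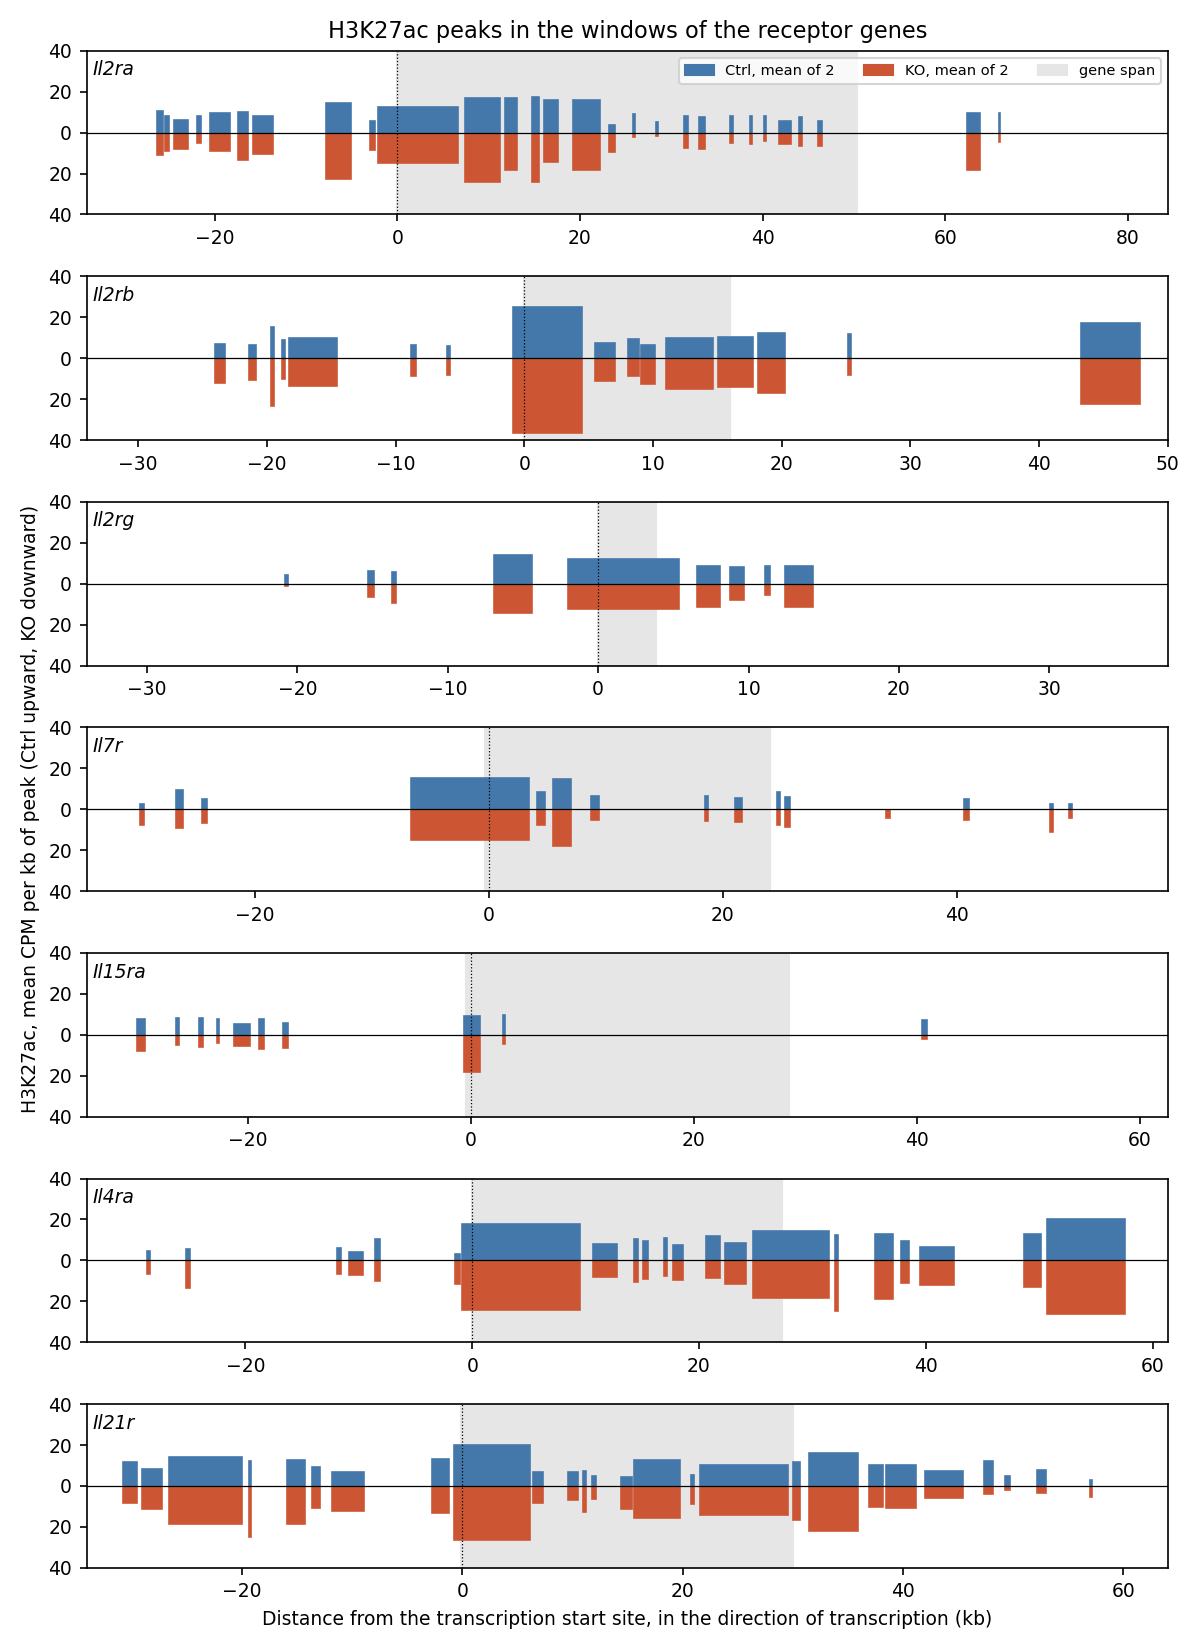
H3K27ac peaks in the window of each receptor gene, by distance from its start site in kb along the direction of transcription, with bar height giving the mean CPM per kb of peak of the 2 Ctrl libraries (upward) and the 2 KO libraries (downward) and grey marking the gene span. Each gene except Il15ra has a broad peak over its start site, and the tallest of these start-site bars are those of Il2rb in both genotypes.

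The chromatin of 6 of the 7 genes was marked by a broad domain over the start site. Among the 9017 peaks that held the start site of a coding gene, the median width was 1.643 kb. The start-site peak measured 10.5 kb at Il4ra, 10.2 kb at Il7r, 8.90 kb at Il2ra, 7.41 kb at Il2rg, 6.96 kb at Il21r and 5.44 kb at Il2rb, which put these 6 between the 94.8th and 98.9th percentile of width. At Il15ra it measured 1.51 kb, at the 45.1st percentile. Peaks covered the whole 3.88 kb of Il2rg (100%), 80.8% of Il2rb, 76.2% of Il21r, 72.1% of Il4ra, 48.0% of Il2ra and 32.1% of Il7r. At Il15ra the coverage was 5.56%, and no peak was found in the 15.8 kb between the last Il2ra peak and the Il15ra start-site peak. At Il7r 65.7% to 73.9% of the window's signal sat in the start-site peak, while at Il2ra 42.1% to 47.7% sat in the gene body, most of it in the peaks nearest the start site.

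The promoters under these domains differed in sequence. The RefSeq promoter table (GRCm38.p6, the assembly of mm10) held 7 entries for 6 of the 7 genes, of which 6 lay wholly inside the start-site peak, and Il2rb was not in it. From each entry the 250 bases before the RefSeq start were used, and CG pairs were counted over all of them unless a shorter stretch is named. Bases inside the span that GENCODE gives the gene are not shown, which left 99 of the 250 bases of Il4ra, all those of Il2ra and Il2rg, and none of Il7r. Il4ra, Il2ra and Il2rg are shown because they have broad domains over promoters of unlike sequence, 5′ to 3′ on the strand of the gene with CG pairs in capitals:
Il4ra, chr7:125552021-125552119, plus strand: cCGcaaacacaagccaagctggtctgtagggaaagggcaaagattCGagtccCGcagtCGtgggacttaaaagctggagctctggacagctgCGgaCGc
Il2ra, chr2:11642542-11642791, plus strand: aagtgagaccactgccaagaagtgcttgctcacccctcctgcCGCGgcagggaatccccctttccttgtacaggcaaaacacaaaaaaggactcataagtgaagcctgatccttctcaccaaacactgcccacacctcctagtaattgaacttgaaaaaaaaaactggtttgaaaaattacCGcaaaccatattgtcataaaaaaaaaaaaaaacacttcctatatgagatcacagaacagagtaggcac
Il2rg, chrX:101268256-101268505, minus strand: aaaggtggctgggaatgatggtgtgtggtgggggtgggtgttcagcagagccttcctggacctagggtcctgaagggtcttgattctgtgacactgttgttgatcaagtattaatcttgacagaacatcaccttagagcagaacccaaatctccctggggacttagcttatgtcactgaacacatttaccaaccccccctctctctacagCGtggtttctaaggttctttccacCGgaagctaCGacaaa
The shown part of Il4ra held 6 CG pairs in 99 bases, and the 250 bases of Il2ra and Il2rg held 3 each. Over the full 250 bases Il4ra held 17, Il21r 4, Il7r 1 and the Il15ra entries 2 and 12, beside a median of 6 over 32817 RefSeq promoters. Among the genes with a broad domain and an entry, only Il4ra stood above that median, at the 76.5th percentile. Il21r, Il2ra, Il2rg and Il7r stood below it, with Il2ra and Il2rg at the 29.1st percentile. The only STAT-type match in the 7 entries was in Il7r and fits TTCNNNGAA, the STAT5-type site that reads the same pattern on both strands and is held by 7.01% of all promoters in these 250 bases. The STAT6-type pattern, TTC and GAA with 4 bases between them, was in 0 of the 7 entries and in 5.85% of all promoters, and a match here describes letters only.

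Similar letters were sought in the peaks. Of 83 tested member peaks at least 300 bases wide, 5 (6.02%) held TTCNNNGAA in their central 300 bases and 6 (7.23%) held the STAT6-type pattern, beside 7.97% and 6.83% of the 72782 other tested peaks. Over whole peaks TTCNNNGAA occurred 0.408 times per kb in the member peaks and 0.294 times per kb in the others. The STAT6-type pattern went the other way, with 0.175 per kb in the member peaks and 0.249 per kb in the others. The start-site peak of Il2ra held 9 matches (1.01 per kb, with a GC content of 41.3%) and that of Il7r held 8 (0.788 per kb, GC 39.9%), whereas that of Il2rb held 1 (0.184 per kb, GC 53.1%). Some matches are shown because they lie in peaks described next, the first upstream of Il2ra, then a pair within 1 Il2ra intron peak and the last between Il4ra and Il21r, all on the plus strand with the match in capitals:
Il2ra upstream, chr2:11636304-11636332: acctgtagatTTCACAGAAttagctgctg
Il2ra intron, chr2:11655211-11655239: tacaacttgcTTCTCAGAAggctctgtct
Il2ra intron, chr2:11655342-11655370: gtctttagttTTCAGAGAAagaggaggaa
Il4ra to Il21r, chr7:125593143-125593172: atcccacatcTTCTGTAGAAacaacactag
The upstream and intron sites fit TTCNNNGAA and the intergenic site fits the STAT6-type pattern. A further TTCNNNGAA match, not shown, lies within chr7:125656121-125656149 in an exon peak of Gtf3c1. That peak is also described below and was lower in KO, with a log2 fold change of −1.36.

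Per kb of peak, the receptors other than Il15ra stood between the 73.7th (Il2rg) and 87.7th (Il2rb) percentile of all genes in Ctrl. Il15ra stood at the 49.0th. In Ctrl the own peaks carried 15.0 ± 4.52 CPM per kb at Il2rb, 14.4 ± 1.21 at Il4ra, 14.2 ± 1.13 at Il7r, 13.3 ± 3.13 at Il21r, 13.0 ± 0.427 at Il2ra, 12.4 ± 1.43 at Il2rg and 9.93 ± 4.91 at Il15ra (SD, n = 2). No neighbours in that order were further apart than the larger of their SDs, and the median over all genes was 10.01 CPM per kb. In KO the order was Il2rb (21.3 ± 8.80), Il4ra (18.0 ± 3.37), Il21r (16.9 ± 4.77), Il15ra (15.8 ± 0.117), Il2ra (14.8 ± 0.396), Il7r (13.8 ± 0.879) and Il2rg (12.3 ± 1.38). There the steps from Il15ra to Il2ra, from Il2ra to Il7r and from Il7r to Il2rg exceeded the SDs, although the last of these pairs overlapped. As total CPM over own peaks, Il4ra, Il2ra and Il21r stood at the 97.5th, 97.3rd and 97.2nd percentile of all genes in Ctrl, Il2rb at the 94.7th, Il7r at the 93.2nd, Il2rg at the 79.8th and Il15ra at the 30.6th.

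**Figure D2:**
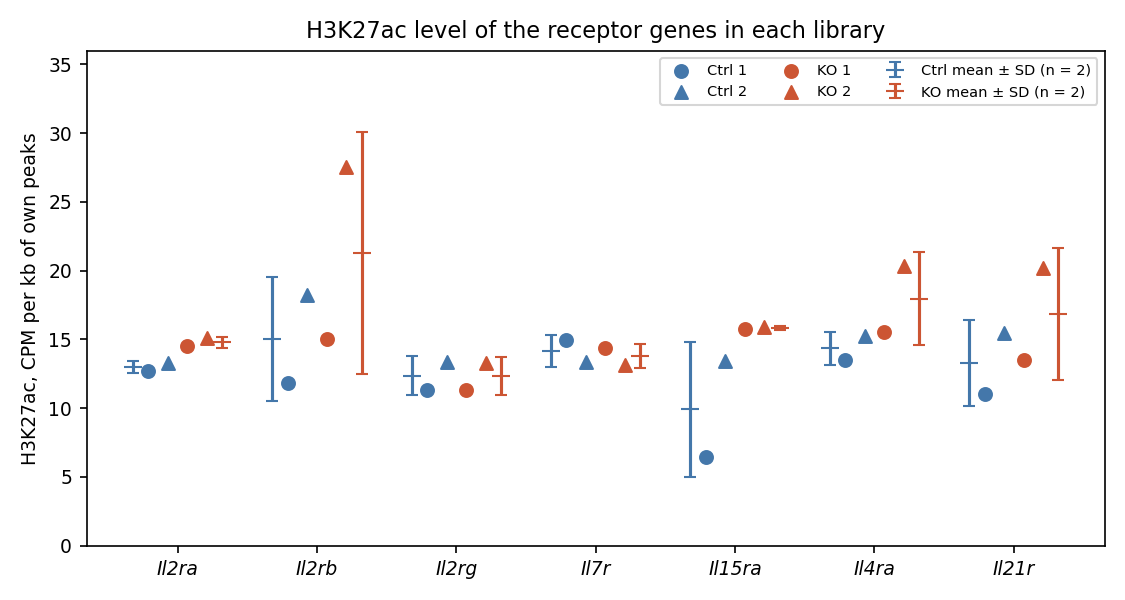
H3K27ac level in CPM per kb of own peaks for each receptor gene (horizontal axis), with 1 point per library and the mean ± SD of the 2 libraries of each genotype beside them. The KO points exceed the Ctrl points at Il2ra, Il15ra and Il4ra, and the widest spread is that of Il2rb in KO, from 15.1 to 27.5 CPM per kb.

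For the comparison of genotypes, edgeR's quasi-likelihood test called 0 of 12739 genes by own peaks at an adjusted p under 0.05 (0% of those tested), the 7 receptors included, and DESeq2 called 0 as well. At an unadjusted p under 0.05, 3.23% of genes were found by edgeR and 0 of the 7 receptors by either tool. That count of 0 did not hold in every edgeR fit with 1 library left out. Il2ra, Il2rb, Il15ra, Il4ra and Il21r had positive log2 fold changes of KO over Ctrl that were at most 1.61 times their SEs, whereas Il2rg and Il7r were near 0. Over the 7 genes the median log2 fold change was 0.32, beside −0.02 over all genes and 0.08 over the 1274 genes with the most Ctrl CPM. Under a loess scaling, which removes differences that depend on signal strength, the medians were 0.18, 0.003 and −0.02. Without that scaling, the 9 T cell and Treg marker genes had a median of 0.30, close to that of the receptors. The KO pair of libraries exceeded the Ctrl pair at 3 of the 7 receptors and at 13.2% of all genes. With 2 libraries against 2, an exact permutation test cannot give a two-sided p below 0.333.

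Il2ra measured 342 and 358 CPM in Ctrl 1 and Ctrl 2 and 392 and 407 CPM in KO 1 and KO 2 over its 18 own peaks. Each KO library was higher than each Ctrl library, and the replicates of a genotype lay close together. KO over Ctrl gave a log2 fold change of 0.19 (SE 0.19, edgeR adjusted p = 0.9995), and 0.06 under the loess scaling. Leaving out any 1 library gave 0.16 to 0.22.

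At Il2rb, 186 and 286 CPM were measured in Ctrl and 237 and 432 CPM in KO. The genotypes overlapped, and in each of them the second library was well above the first. The log2 fold change of 0.50 (SE 0.31, edgeR adjusted p = 0.9995) was 0.00 without KO replicate 2, 0.23 without Ctrl replicate 1, and 0.85 and 0.87 without Ctrl replicate 2 or KO replicate 1.

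For Il2rg, the chain common to the whole family, 84.1 and 99.1 CPM in Ctrl stood beside 84.2 and 98.7 CPM in KO. The libraries of the genotypes matched almost value for value. This gave a log2 fold change of −0.003 (SE 0.25, edgeR adjusted p = 0.9995), and −0.08 when the gene was scaled to the tested peaks of chromosome X. Of that chromosome's counts, Il2rg took 0.681% and 0.954% in Ctrl and 0.711% and 0.839% in KO.

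Il7r, whose product receives the IL-7 signal that maintains conventional T cells, measured 213 and 190 CPM in Ctrl and 205 and 187 CPM in KO. The groups overlapped, and the first library was the higher of each pair. The log2 fold change was −0.04 (SE 0.22, edgeR adjusted p = 0.9995). Without Ctrl replicate 1 or KO replicate 2 it was 0.04 or 0.02.

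Il15ra carried the least signal, with 11.8 and 24.4 CPM in Ctrl (26 and 82 counts) and 28.7 and 29.0 CPM in KO (77 and 121 counts). The KO libraries were nearly equal and both above Ctrl, while Ctrl 1 stood well below Ctrl 2. From these counts the log2 fold change was 0.65 (SE 0.40, edgeR adjusted p = 0.9995). Without Ctrl replicate 1 it was 0.24, and without Ctrl replicate 2 it was 1.29.

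Il4ra measured 342 and 386 CPM in Ctrl and 395 and 515 CPM in KO. Both KO libraries were higher, KO 1 only slightly above Ctrl 2. Its log2 fold change was 0.32 (SE 0.21, edgeR adjusted p = 0.9995) and 0.18 under the loess scaling, with 0.12 left without KO replicate 2 and 0.50 without KO replicate 1.

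Its neighbour Il21r measured 286 and 401 CPM in Ctrl and 349 and 524 CPM in KO. Here the groups overlapped, since KO 1 lay between the Ctrl libraries. The log2 fold change was 0.34 (SE 0.26, edgeR adjusted p = 0.9995). It was 0.02 without KO replicate 2, 0.12 without Ctrl replicate 1, and 0.61 without either Ctrl replicate 2 or KO replicate 1.

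**Figure D3:**
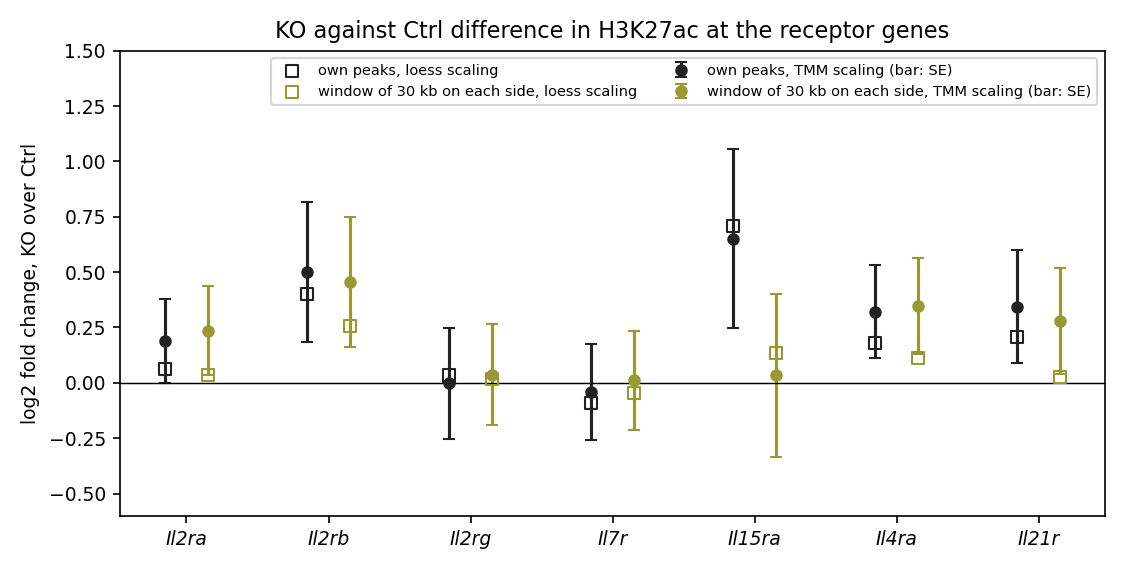
Log2 fold change of KO over Ctrl for each receptor gene, from its own peaks and from the window of 30 kb on each side, with the SE as a bar under the TMM scaling and open squares giving the value under the loess scaling. Il2rg and Il7r sit near 0, the other values lie above 0, and the own-peak and window values part at Il15ra.

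Replicates of a genotype often differed by more than the genotypes did. The log2 ratio of the second over the first library was 0.62 in Ctrl and 0.87 in KO at Il2rb, and 0.49 and 0.59 at Il21r, each larger than the genotype difference of the gene. At Il15ra it was 1.05 in Ctrl and 0.02 in KO, and at Il4ra 0.17 and 0.39. Only at Il2ra was the genotype difference larger than both replicate ratios, which were 0.07 and 0.05. At Il2rg the ratios were 0.24 and 0.23 and at Il7r −0.16 and −0.13, again larger in size than the genotype difference.

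**Figure D4:**
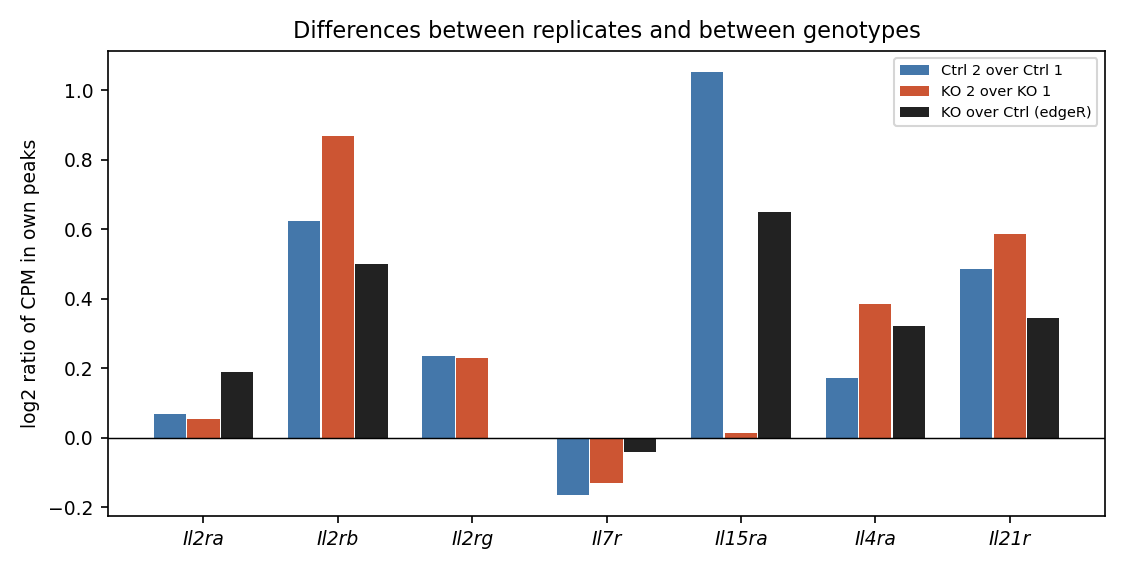
Log2 ratio of the second over the first library in Ctrl and in KO, beside the log2 fold change of KO over Ctrl from edgeR, for the own peaks of each receptor gene. The replicate bars exceed the genotype bar at Il2rb, Il2rg, Il7r and Il21r, and the genotype bar is the longest of the 3 at Il2ra only.

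Summed over whole windows, most genes had values close to those of their own peaks. No window was called at an adjusted p under 0.05 (0% of 16776 by edgeR, and 0 by DESeq2). In either tool, 0 of the 7 receptor windows had an unadjusted p under 0.05, beside 2.3% of all windows in edgeR. The count of 0 receptor windows did not hold in every edgeR fit with 1 library left out. The window log2 fold changes were 0.46 for Il2rb, 0.35 for Il4ra, 0.28 for Il21r, 0.23 for Il2ra, 0.04 for Il2rg, 0.03 for Il15ra and 0.01 for Il7r. Under the loess scaling they were 0.26 for Il2rb, 0.11 for Il4ra, 0.03 for Il21r, 0.04 for Il2ra, 0.02 for Il2rg, 0.13 for Il15ra and −0.05 for Il7r, so their median went from 0.23 to 0.04. Without KO replicate 2 the Il2rb window gave 0.008, that of Il21r 0.03 and that of Il4ra 0.17. Il2ra and Il4ra were the 2 windows in which the KO pair exceeded the Ctrl pair, which was so for 11.5% of all windows. At Il15ra the choice of region decided the value, since the window gave 0.03 and the gene span with no flank gave 0.65. The Il2rg and Il7r windows changed sign under other flanks or scalings and stayed close to 0.

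Peak by peak, 86 of the 107 members had enough counts to be tested, and the 21 others held at most 22 counts in any library. Of those tested, 55 were higher and 31 lower in KO, with a median log2 fold change of 0.23 beside −0.01 over all 74550 tested peaks. Under the loess scaling 58 were higher and the medians were 0.14 and −0.02. None of the 86 was called by edgeR at an adjusted p under 0.05, where 0.00134% of all peaks were called, or by DESeq2. At an unadjusted p under 0.05, edgeR found 4 higher (4.65%) and 1 lower (1.16%), beside 1.45% and 2.79% of all peaks, and DESeq2 found 1 in all, beside 1.97%. The edgeR count of 5 was not stable when 1 library at a time was left out. The KO pair exceeded the Ctrl pair at 24 peaks (27.9%) and lay below it at 7 (8.14%), beside 16.9% and 16.4% of all peaks, and neighbouring peaks of 1 gene are not independent. By window, 13 of 14 tested peaks were higher in KO at Il2rb, 14 of 22 at Il2ra, 17 of 23 at Il21r, 12 of 20 at Il4ra, 4 of 10 at Il7r, 2 of 6 at Il2rg and 1 of 5 at Il15ra.

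**Figure D5:**
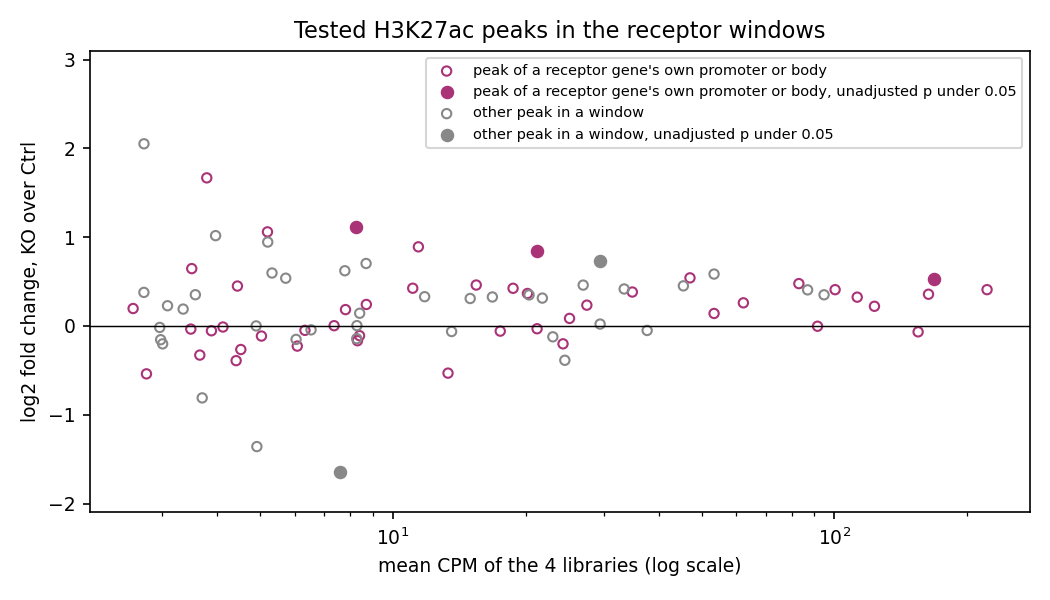
Log2 fold change of KO over Ctrl for the 86 tested peaks against their mean CPM (log axis), coloured by whether the peak belongs to a receptor gene itself, with filled points for an unadjusted p under 0.05. The filled points are 4 above 0 and 1 below, the latter in Gtf3c1, and the peaks with the highest signal lie within 1 log2 unit of 0.

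The start-site peak of Il15ra, chr2:11705083-11706596, which covers its first exon, measured 9.05 and 20.8 CPM in Ctrl (20 and 70 counts) and 27.6 and 27.3 CPM in KO (74 and 114 counts). Both KO libraries were higher, and Ctrl 1 was the lowest. Its log2 fold change was 0.84 (SE 0.39, edgeR adjusted p = 0.998), with 0.40 without Ctrl replicate 1 and 1.60 without Ctrl replicate 2. The unadjusted p was under 0.05 in edgeR and not in DESeq2.

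The start-site peak of Il2rb, chr15:78490803-78496243, measured 99.5 and 176 CPM in Ctrl and 136 and 260 CPM in KO. It was the peak with the most signal per kb among the 7 start sites, and the genotypes overlapped. KO over Ctrl, the log2 fold change was 0.52 (SE 0.26, edgeR adjusted p = 0.998), and −0.02 without KO replicate 2. Its unadjusted p was also under 0.05 in edgeR alone.

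At the other start sites, the peak of Il4ra (chr7:125551104-125561588) measured 175 and 206 CPM in Ctrl and 213 and 292 CPM in KO, and that of Il2ra (chr2:11640601-11649500) 114 and 114 CPM in Ctrl and 116 and 149 CPM in KO. In both peaks the KO libraries stood above Ctrl, at Il2ra by very little for KO 1. Their log2 fold changes were 0.41 and 0.22, and the edgeR adjusted p was 0.998 for each. The start-site peaks of Il21r (chr7:125602717-125609680), Il7r (chr15:9526408-9536562) and Il2rg (chrX:101262903-101270315) overlapped between genotypes, with log2 fold changes of 0.36, −0.07 and −0.003. Under the loess scaling the start-site values were 0.76 at Il15ra, 0.25 at Il2rb, 0.12 at Il4ra, 0.10 at Il21r, −0.01 at Il2ra, −0.20 at Il2rg and −0.31 at Il7r.

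Between Il4ra and Il21r, an intergenic peak at chr7:125591564-125594618, at −8.92 kb from the Il21r start site, held the STAT6-type letters shown above. It measured 24.0 and 20.5 CPM in Ctrl and 33.5 and 39.8 CPM in KO. Each KO library was above each Ctrl library. The log2 fold change was 0.73 (SE 0.35, edgeR adjusted p = 0.998) and stayed between 0.60 and 0.84 when 1 library was left out, and its unadjusted p was under 0.05 in edgeR and not in DESeq2.

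Upstream of Il2ra, the intergenic peak at chr2:11634932-11637778, at −5.03 kb from the start site, was singled out after its values were seen. It measured 43.4 and 42.0 CPM in Ctrl and 65.6 and 62.5 CPM in KO, with each genotype's libraries close together and KO higher. The log2 fold change was 0.58 (SE 0.31, edgeR adjusted p = 0.998). An intron peak 7.31 kb into Il2ra, chr2:11650120-11654099, was also chosen after its values were seen and measured 67.4 and 71.4 CPM in Ctrl and 94.6 and 98.7 CPM in KO (edgeR estimate 0.48 on the log2 scale, SE 0.29, adjusted p = 0.998). The next intron peak, chr2:11654553-11655971, holds the pair of STAT5-type matches shown above. It measured 22.6 and 26.2 CPM in Ctrl and 22.7 and 29.0 CPM in KO, and overlapped. Its log2 fold change was 0.09 (SE 0.37, edgeR adjusted p = 0.998). Under the loess scaling the upstream peak gave 0.44, the intron peak at 7.31 kb 0.29 and the next one −0.01. Whether the difference varied from peak to peak along Il2ra was not tested.

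Among the peaks with an unadjusted p under 0.05 in edgeR were also a small one in Il21r and one in a neighbouring gene. In the body of Il21r, the peak at chr7:125617877-125618908, named after its values were seen, measured 4.07 and 6.25 CPM in Ctrl and 10.1 and 12.7 CPM in KO (edgeR estimate 1.12 on the log2 scale, SE 0.57, adjusted p = 0.998). In an exon of Gtf3c1, a subunit gene of a general transcription factor for RNA polymerase III that shares the Il21r window, the peak at chr7:125650758-125651677 measured 6.79 and 16.4 CPM in Ctrl and 2.24 and 5.03 CPM in KO. Both KO libraries were below Ctrl there. Its log2 fold change was −1.64 (SE 0.59, edgeR adjusted p = 0.998) on 6 to 55 counts a library, with −0.86 without Ctrl replicate 2 and −2.37 without KO replicate 2. This was the single member peak with an unadjusted p under 0.05 in both tools.

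The other peaks lower in KO had an unadjusted p of 0.05 or more in edgeR. A second exon peak of Gtf3c1, chr7:125655621-125656464, named after its values were seen, measured 5.43 and 8.63 CPM in Ctrl and 3.73 and 1.92 CPM in KO (edgeR estimate −1.36 on the log2 scale, SE 0.75, adjusted p = 0.998). An exon peak of Il4ra at chr7:125572671-125573967 measured 14.0 and 17.6 CPM in Ctrl and 9.31 and 12.5 CPM in KO, with both KO libraries below (edgeR estimate −0.53 on the log2 scale, adjusted p = 0.998). An intergenic peak at −21.5 kb from the Il2ra start site measured 4.98 and 4.46 CPM in Ctrl and 2.98 and 2.40 CPM in KO (edgeR estimate −0.81 on the log2 scale, adjusted p = 0.998). In the Il7r flank, a peak nearest to Capsl held 5 and 0 counts in Ctrl beside 13 and 16 counts in KO, too few for a stable fold change.

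The rest of the pathway was described by the same own-peak fit. Of 28 genes, 22 had own peaks and were tested, 17 higher and 5 lower in KO with a median log2 fold change of 0.21, and 0 were called or had an unadjusted p under 0.05 in edgeR or DESeq2. Both KO libraries lay above Ctrl at 6 of the 22 tested genes and below at 2, beside 13.2% and 17.6% of all genes. Among the receptors, Il13ra1 and Il13ra2 had no own peak. Ligands carried little of the mark, since Il9, Il13, Il21 and Tslp had no own peak and Il2, Il4, Il7 and Il15 together measured 55.6 and 33.0 CPM in Ctrl and 40.2 and 36.4 CPM in KO. The kinases Jak1 and Jak3 summed to 614 and 769 CPM in Ctrl and 731 and 895 CPM in KO, and the 5 STAT genes to 906 and 1138 CPM and 993 and 1343 CPM. In both sums the genotypes overlapped, as they did for the 5 target genes (899 and 1012 CPM in Ctrl, 951 and 1191 CPM in KO). The 4 feedback inhibitors summed to 744 and 734 CPM in Ctrl and 831 and 942 CPM in KO, with the KO pair above.

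The highest Ctrl signal per kb in the pathway belonged to a receptor, an inhibitor and a target. Crlf2, the receptor chain for the cytokine TSLP, had the most signal per kb and measured 164 and 97.6 CPM in Ctrl and 159 and 101 CPM in KO. Its first library was the higher in both genotypes. Cish, an inhibitor that STAT5 induces, had 26.5 CPM per kb and measured 402 and 462 CPM in Ctrl and 514 and 576 CPM in KO, with both KO libraries higher. Pim1, a survival kinase gene also induced by STAT5, had 20.6 CPM per kb and measured 155 and 164 CPM in Ctrl and 170 and 229 CPM in KO.

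By profile over the 4 libraries, the genes most like Il2ra in log2 CPM of own peaks were Tagap, Tlcd2 and Milr1, with Pearson's r of 0.9999, 0.9994 and 0.9992, and 147 of the 4856 genes compared (3.03%) reached 0.95. With 4 points that share their libraries and depth, such values are a description only. Within the family r to Il2ra was 0.88 for Il4ra, 0.85 for Il15ra, 0.76 for Il21r, 0.75 for Il2rb, 0.30 for Il2rg and −0.54 for Il7r. Tagap measured 86.0 and 99.4 CPM in Ctrl and 129 and 144 CPM in KO.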

How the data were processed

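The deposited counts were raw read counts per merged peak, which the authors made from reads aligned with Bowtie2 to mm10, with peaks called by MACS2 against IgG and merged with bedtools. Tool versions were not given in the sources used here, and the IgG library was not analysed here. Libraries were grouped by the genotype in their labels. Counts were fitted with edgeR 4.0.16 (quasi-likelihood test, TMM scaling from the peak table, Benjamini-Hochberg adjustment over all peaks, windows or genes) in R 4.3.3. A feature needed 10 counts or more in 2 libraries or more to enter a test, CPM used the TMM-scaled totals of tested peaks, and SEs came from the fold change and the F statistic. Genes came from GENCODE M21, an annotation of the mm10 assembly.

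The members and gene lists were chosen with earlier results of these data known. Named in each window were the peak with the highest mean CPM, the start-site peak, and the higher and the lower peak with the smallest p. Named pathway genes were those with an unadjusted p under 0.05 and the 3 with the highest Ctrl CPM per kb, and for likeness to Il2ra the 3 genes with the highest correlation. Alternatives were DESeq2 1.42.0, other scalings, filters and flanks, a robust fit, halved counts, the replicate number as a block, and leaving out each library. On simulated counts, 151 of 194 genes changed 4-fold and 29 of 197 changed 2-fold were called from own peaks, and at the level of single peaks 52 of 150 and 0 of 171.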

Additional observations from a re-analysis of the deposited data

How the results depend on the processing

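With 2 libraries a genotype, most 2-fold differences, and in single peaks most 4-fold differences, were missed in the simulated counts. The changed features were drawn at random from all those tested, while most receptor genes had high signal, so these rates need not hold for the receptors. Intervals of shares cover counting error only. At an adjusted p under 0.05, 0 members were called under every alternative except the replicate block. The count of member peaks at an unadjusted p under 0.05 was 1 in DESeq2, 2 under total-count scaling and 2 under a minimum of 50 counts in 2 libraries. Leaving out 1 library at a time changed this count in some fits, as it did for windows, own peaks and the pathway genes. Such fits leave 1 library in a genotype, so their counts are not given. The Il2ra level in Ctrl was 12.5 CPM per kb with DESeq2 size factors and 12.0 with total counts.

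The library numbers were also used as a replicate block, although the labels do not say that equal numbers mark a shared litter or day and 2 pairs are too few for the data to show it. Across 74550 peaks, the differences of replicate 2 from replicate 1 in Ctrl and in KO had r = 0.25. Under the block, 890 of 12739 genes (6.99%), 2011 of 16776 windows (12.0%) and 211 of 74550 peaks (0.283%) were called. Among them were 3 members by own peaks (Il2rb, Il4ra and Il21r), 4 windows (those genes and Il2ra), 1 member peak (the Il2rb start site) and 4 pathway genes. At an unadjusted p under 0.05 the block gave 19 member peaks, 4 windows, 5 members by own peaks and 8 pathway genes, beside 6966 of all peaks (9.34%), 4120 of all windows (24.6%) and 2354 of all genes (18.5%).

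Log2 fold changes that turned sign were near 0 in 11 of the alternatives that kept all libraries. Il2rg was 0.033 in own peaks under loess, and in its window −0.019 with total counts, −0.0029 with no flank and −0.0029 with shared peaks given to the nearer gene. The Il7r window was −0.044 with total counts, −0.045 under loess, −0.025 with a flank of 10 kb, −0.040 with no flank and −0.023 with shared peaks given to the nearer gene. The Il15ra window was −0.023 with total counts, and the Il2ra start-site peak −0.014 under loess. Leaving out 1 library, the ranges that crossed 0 were −0.12 to 0.12 for Il2rg and −0.12 to 0.043 for Il7r in own peaks, and −0.10 to 0.19 for Il2rg, −0.11 to 0.14 for Il7r and −0.42 to 0.74 for Il15ra in windows. For peaks they were −1.05 to 0.64 and −0.16 to 0.023 in Il7r (the intron and start-site peaks), −0.37 to 0.17 and −0.023 to 0.997 in Il2rb (body and start site), −0.91 to 0.86 in the distal Il2ra intron, −0.044 to 0.97 and −0.46 to 0.33 at Foxo4, and −0.12 to 0.12 at the Il2rg start site. The cause of these sign changes was not tested.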
